A study of Mus musculus with 4 samples.

Results

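The thymosin family was read from 4 gene rows of the 38457 mouse rows in single-cell counts of pancreatic islet cells. The rows are Tmsb4x, Tmsb10, Tmsb15b1 and Tmsb15b2, and they were selected on their counts across cell classes and genotype labels, a pattern already seen in these libraries. Their differences between genotype labels are therefore given as a description, with no test. The study set islets of mice labelled Sin3A mutant beside islets labelled WT, with 2 libraries per label described as biological replicates. SIN3A is a scaffold of a histone deacetylase complex that acts on chromatin. The sources used here do not give the allele, the cells in which it was changed, or the strain and age of the mice. Titles end in 1 of 2 numbers, each found once per label, so the libraries are called mutant A, mutant B, WT A and WT B, the letter standing for the number and nothing else. Each library was made by inDrop, in which cells are captured in droplets and the 3′ ends of their messenger RNAs are tagged and counted.

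The libraries labelled mutant A and B held 9282495 and 12236110 counts, and those labelled WT A and B held 12835199 and 10350699. After filters on cells 1144 and 2382 cells labelled mutant and 1207 and 1793 cells labelled WT remained, 6526 in all. Sin3a went against a simple reading of the labels, with 54.1 and 21.3 counts per 1e6 (CPM) over all cells in the libraries labelled mutant A and B, against 27.5 and 43.5 CPM in those labelled WT A and B. Since a 3′ tag can lie outside the changed part of the gene, that level checks no label, and the labels are used as given. The spread within a label exceeded counting error: chi-square divided by its degrees of freedom was 189 between the libraries labelled mutant and 87.9 between those labelled WT. Of 6398 cell barcodes, 127 (1.99%) occurred in more than 1 library. Xist, an RNA of the inactive X chromosome, and the Y-linked Ddx3y were present in every library, at 17.7 to 35.6 and 82.8 to 103 CPM.

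Beta-thymosins are very small proteins that bind monomers of actin and keep them out of filaments, so that a cell holds a reserve of monomers for growth of its cytoskeleton. Tmsb4x encodes thymosin beta 4, known as the main actin monomer buffer of blood cells, platelets and endothelium. Tmsb10 encodes thymosin beta 10, a close relative known from developing tissues and many tumours. Tmsb15b1 and Tmsb15b2 encode thymosins of the beta 15 kind, known from the nervous system and from prostate cancer cells.

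In GENCODE M21 on GRCm38, all members lie on the minus strand. Tmsb4x (ENSMUSG00000049775) lies at chrX:167207093-167209315, and Tmsb10 (ENSMUSG00000079523) at chr6:72957347-72958748. Tmsb15b1 (ENSMUSG00000089768) lies at chrX:136974022-136976874 and Tmsb15b2 (ENSMUSG00000089996) at chrX:136955265-136975497. The coding sequences of Tmsb15b1 and Tmsb15b2, from GENCODE M21, are shown because their likeness bears on how far their counts can be told apart. Capitals mark the 4 of 135 bases at which they differ (97.0% identity).
Tmsb15b1: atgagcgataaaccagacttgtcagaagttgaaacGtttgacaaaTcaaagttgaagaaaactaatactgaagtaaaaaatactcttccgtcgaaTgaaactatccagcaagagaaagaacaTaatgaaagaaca
Tmsb15b2: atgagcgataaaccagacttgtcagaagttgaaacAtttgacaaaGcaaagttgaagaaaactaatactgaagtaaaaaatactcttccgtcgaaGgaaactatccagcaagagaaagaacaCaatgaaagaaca
Counted from 1 at the start codon, with the base of Tmsb15b1 first and that of Tmsb15b2 last, the differences are G36A, T46G, T96G and T123C. The coding sequences of Tmsb4x and Tmsb10, of 132 bases each, are shown for contrast, with capitals at the 40 bases that differ position by position (69.7% identity).
Tmsb4x: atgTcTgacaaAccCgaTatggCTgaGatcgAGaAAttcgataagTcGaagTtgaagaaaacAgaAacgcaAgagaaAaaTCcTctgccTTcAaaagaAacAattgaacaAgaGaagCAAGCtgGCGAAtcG
Tmsb10: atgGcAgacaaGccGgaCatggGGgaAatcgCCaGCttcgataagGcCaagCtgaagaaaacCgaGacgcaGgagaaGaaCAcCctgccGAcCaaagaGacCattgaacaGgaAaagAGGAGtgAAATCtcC
Neither of these shares a stretch of 50 bases of last exon with the Tmsb15 genes or with each other, and processed copies elsewhere in the genome were not searched for here.

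The Tmsb15 genes are a pair of copies spanned by another annotated gene. Tmsb15l (ENSMUSG00000072955), at chrX:136954988-136976869, starts with the first 2 exons of Tmsb15b1 and ends with the last 2 exons of Tmsb15b2. The last exon of Tmsb15b2, 218 bases long, lies wholly within the 495 bases of the last exon of Tmsb15l. A 3′ tag from Tmsb15b2 therefore also matches Tmsb15l, and the sources used here do not say how such tags were assigned. The last exons of Tmsb15b1 and Tmsb15b2 match at 211 of 218 bases (96.8%), and 64 of their 169 stretches of 50 bases are shared. Counts of the 3 rows are uncertain against each other for that reason, and their sum is given beside the single rows.

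**Figure D1:**
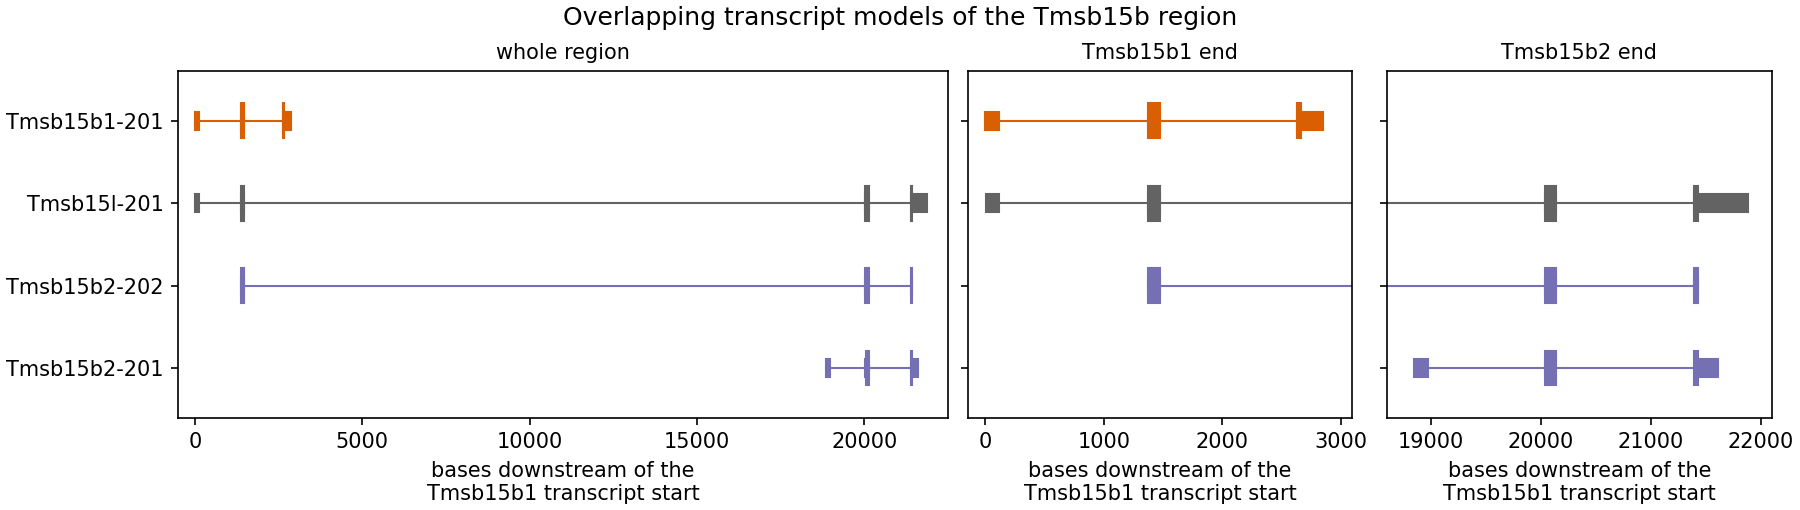
Transcript models of the Tmsb15 genes on the minus strand (GENCODE M21), with boxes for exons, against distance in bases downstream of the start of Tmsb15b1. Tmsb15l runs from the first exons of Tmsb15b1 to the last exons of Tmsb15b2, and the last exon of Tmsb15b2 sits inside that of Tmsb15l.

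The starts of the copies are as alike as their coding parts. The RefSeq windows (GRCm38.p6) of 250 bases before to 50 bases after the start are shown because Tmsb15b1 and Tmsb15b2 did not vary alike between libraries. Tmsb15b1 has the window chrX:136976825-136977124 and Tmsb15b2 the window chrX:136957930-136958229, both on the minus strand. Capitals mark the 8 bases that differ over the 265 bases in which the windows overlap when aligned.
Tmsb15b1: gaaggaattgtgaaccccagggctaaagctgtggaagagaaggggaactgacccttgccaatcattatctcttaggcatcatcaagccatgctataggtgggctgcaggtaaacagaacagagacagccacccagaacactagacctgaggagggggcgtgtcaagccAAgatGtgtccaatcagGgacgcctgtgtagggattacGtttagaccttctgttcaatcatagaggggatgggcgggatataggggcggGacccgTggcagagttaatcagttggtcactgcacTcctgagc
Tmsb15b2: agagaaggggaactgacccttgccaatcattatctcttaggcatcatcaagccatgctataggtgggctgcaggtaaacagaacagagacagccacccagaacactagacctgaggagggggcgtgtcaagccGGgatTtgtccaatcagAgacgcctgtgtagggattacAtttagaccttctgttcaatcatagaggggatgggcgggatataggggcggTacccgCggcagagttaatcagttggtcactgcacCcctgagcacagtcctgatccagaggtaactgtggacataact
With positions counted from 1 at the 5′ end of the Tmsb15b1 window, and the base of Tmsb15b1 first, these are A169G, A170G, G174T, G186A, G207A, G258T, T264C and T293C. The 257 matching bases give 97.0% identity, and the window of Tmsb15l is the same as that of Tmsb15b1. On either strand, the letters CCAAT occur in the Tmsb15b1 and Tmsb15b2 windows, as in 37.4% of all 32851 promoter windows, and not in the 1 window of Tmsb4x or the 3 of Tmsb10. TATAAA, in 13.6% of all windows, and the CArG box, the letters bound by SRF, in 1.63%, occur in none of the members' windows.

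Cells were clustered without the thymosin rows among the variable genes, and clusters were named from markers. Named classes are called beta-like, alpha-like and so on, since the names were rebuilt here. The beta-like class held 479 and 693 cells labelled mutant, in A and B, and 454 and 563 labelled WT. These cells split by library. In the libraries labelled mutant A and B, 87.5% of beta-like cells lay in cluster 5 and 94.4% in cluster 10, and in those labelled WT A and B, 93.0% lay in cluster 0 and 93.8% in cluster 22. A value of the beta-like class therefore compares different clusters. Alpha-like cells lay in cluster 12, mostly of B, and cluster 8, mostly of A. Insulin messages took 28.9% and 4.26% of beta-like counts in the libraries labelled mutant A and B, against 15.2% and 8.52% in those labelled WT A and B.

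Among the named classes Tmsb4x was highest in macrophage-like and endothelial-like cells, and by median lowest in beta-like cells. Its level, as the median of 4 library sums, was 18318 CPM in macrophage-like cells, with a range of 10807 to 30496. Endothelial-like cells followed at a median of 6351 CPM, from 6021 to 9171, and the ranges of these classes did not overlap with each other or with the next. Neuronal-like, mesenchymal-like, Schwann-like and, after the unnamed clusters, ductal-like cells came next, with overlapping ranges from one to the next and medians of 5104, 3929, 3764 and 2461 CPM. The unnamed clusters, 13 and 19, are unlike, so their pooled place is that of a mixture. Cluster 13 alone stood at 482 and 103 CPM labelled mutant A and B, against 236 and 650 CPM labelled WT A and B. Cluster 19, of 40 cells with S100a9 and S100a8 among its top genes, therefore stood above the pooled level in each library. It was not ranked singly. No value of the ductal-like class overlapped with the alpha-like class, which led the endocrine classes. Erythroid-like cells stood low, at a median of 378 CPM with a range of 248 to 892, which overlapped with the beta-like range of 95.1 to 413.

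Within the endocrine classes, Tmsb4x set alpha-like apart from beta-like cells. Its median was 1628 CPM in alpha-like cells, 940 in pancreatic polypeptide (pp)-like, 442 in delta-like, 260 in cycling beta-like and 230 in beta-like cells. The cycling beta-like median depended on the clusters, at 466 CPM with no more than 10% mitochondrial counts and 442 CPM at Leiden resolution 0.5, so its place next to delta-like cells is not settled. In alpha-like cells it stood at 1803 and 1363 CPM in the libraries labelled mutant A and B, against 1925 and 1452 CPM in those labelled WT A and B. Those values were alike within a number, with log2 ratios of mutant over WT of -0.09 in both A and B. After each cell was thinned to 2000 counts, 87.1% and 87.0% of alpha-like cells labelled mutant A and B held a Tmsb4x count, against 94.96% and 89.97% of those labelled WT A and B. Every thinned macrophage-like cell of the 4 libraries held a count.

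In beta-like cells Tmsb4x went opposite ways in A and B. Its level was 308 and 152 CPM in the libraries labelled mutant A and B, against 95.1 and 413 CPM in those labelled WT A and B. The high libraries were thus mutant A and WT B, and the labels overlapped. Within A the ratio of mutant over WT was 3.24 (95% interval 2.94 to 3.57), and within B it was 0.370 (0.338 to 0.404), where intervals cover counting error only. Of 14878 genes tested in beta-like cells, 7.81% were likewise at least 2-fold higher in mutant A than in WT A and at least 2-fold lower in mutant B than in WT B. The fitted log2 difference between labels was 0.02 with TMM factors and -0.14 with library totals, against a median of 0.02 over all genes tested. It was 1.19 without the library labelled WT B, 0.36 without mutant B, -0.58 without mutant A and -0.72 without WT A.

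The share of beta-like cells with a Tmsb4x count had the same order. After thinning to 2000 counts it was 40.0% and 20.2% in the libraries labelled mutant A and B, against 14.7% and 46.6% in those labelled WT A and B. Without thinning the shares were 70.1% and 40.5% labelled mutant and 39.2% and 78.7% labelled WT, at median depths of 9698 and 6192, and of 13260.5 and 6375 counts. In sums of cells, more cells with the message and more message per cell cannot be told apart, and the thinned mean was 0.676 and 0.336 counts a cell labelled mutant A and B, against 0.217 and 0.835 labelled WT A and B.

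Markers of macrophages, endothelium and alpha cells had the same high libraries as Tmsb4x, and those of mesenchymal, ductal and delta cells did not. The 8 macrophage markers summed to 67.7 and 30.4 CPM in the beta-like sums of libraries labelled mutant A and B, against 40.6 and 80.7 CPM in those labelled WT A and B, with 2 markers at 0 in each library labelled mutant, and 0 and 1 at 0 in WT A and B. The 8 endothelial markers summed to 38.9 and 31.5 CPM labelled mutant, against 21.6 and 43.3 CPM labelled WT, with none at 0. Mesenchymal markers summed to 67.5 and 102 CPM labelled mutant, against 41.4 and 87.7 CPM labelled WT, and ductal markers to 737 and 615 CPM, against 699 and 545 CPM, with none at 0. Alpha markers summed to 4819 and 3205 CPM labelled mutant A and B, against 1761 and 3444 CPM labelled WT A and B. Delta markers summed to 477 and 974 CPM labelled mutant, against 611 and 622 CPM labelled WT. Macrophage-like RNA, scaled to its marker sum, would carry 60.9% and 38.5% of the beta-like Tmsb4x counts in the libraries labelled mutant A and B, against 93.2% and 38.4% in those labelled WT A and B, an estimate from 8 and 27 macrophage-like cells labelled mutant and 11 and 26 labelled WT. Scaled alike, ductal-like RNA would carry 61.9% and 145% labelled mutant, against 140% and 44.8% labelled WT, which is above the whole level in 2 libraries. For alpha-like RNA the scaled values were 17.3% and 18.6% labelled mutant A and B, against 32.1% and 6.20% labelled WT A and B. How much of the beta-like Tmsb4x level came from beta cells is therefore uncertain in these sums.

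Tmsb4x also had opposite ratios in A and B in cycling beta-like and delta-like cells. Its level in cycling beta-like cells was 374 and 145 CPM in the libraries labelled mutant A and B, against 121 and 440 CPM in those labelled WT A and B. The log2 ratios were 1.63 within A and -1.60 within B, and 5.27% of genes there crossed in that direction by at least 2-fold in each. With clusters made at no more than 10% mitochondrial counts the ratios were 1.23 and -0.45, and at Leiden resolution 0.5 they were 1.26 and -0.61. In delta-like cells the values were 522 and 358 CPM labelled mutant, against 363 and 756 CPM labelled WT, with log2 ratios of 0.53 and -1.08. Endothelial-like and mesenchymal-like cells had log2 ratios the other way round, of -0.56 and 0.10 and of -0.71 and 0.26 in A and B. The mesenchymal-like class mixes clusters in parts that differ between libraries. In pp-like cells the ratios were 0.08 and -0.69, and the interval in A covered 1.

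**Figure D2:**
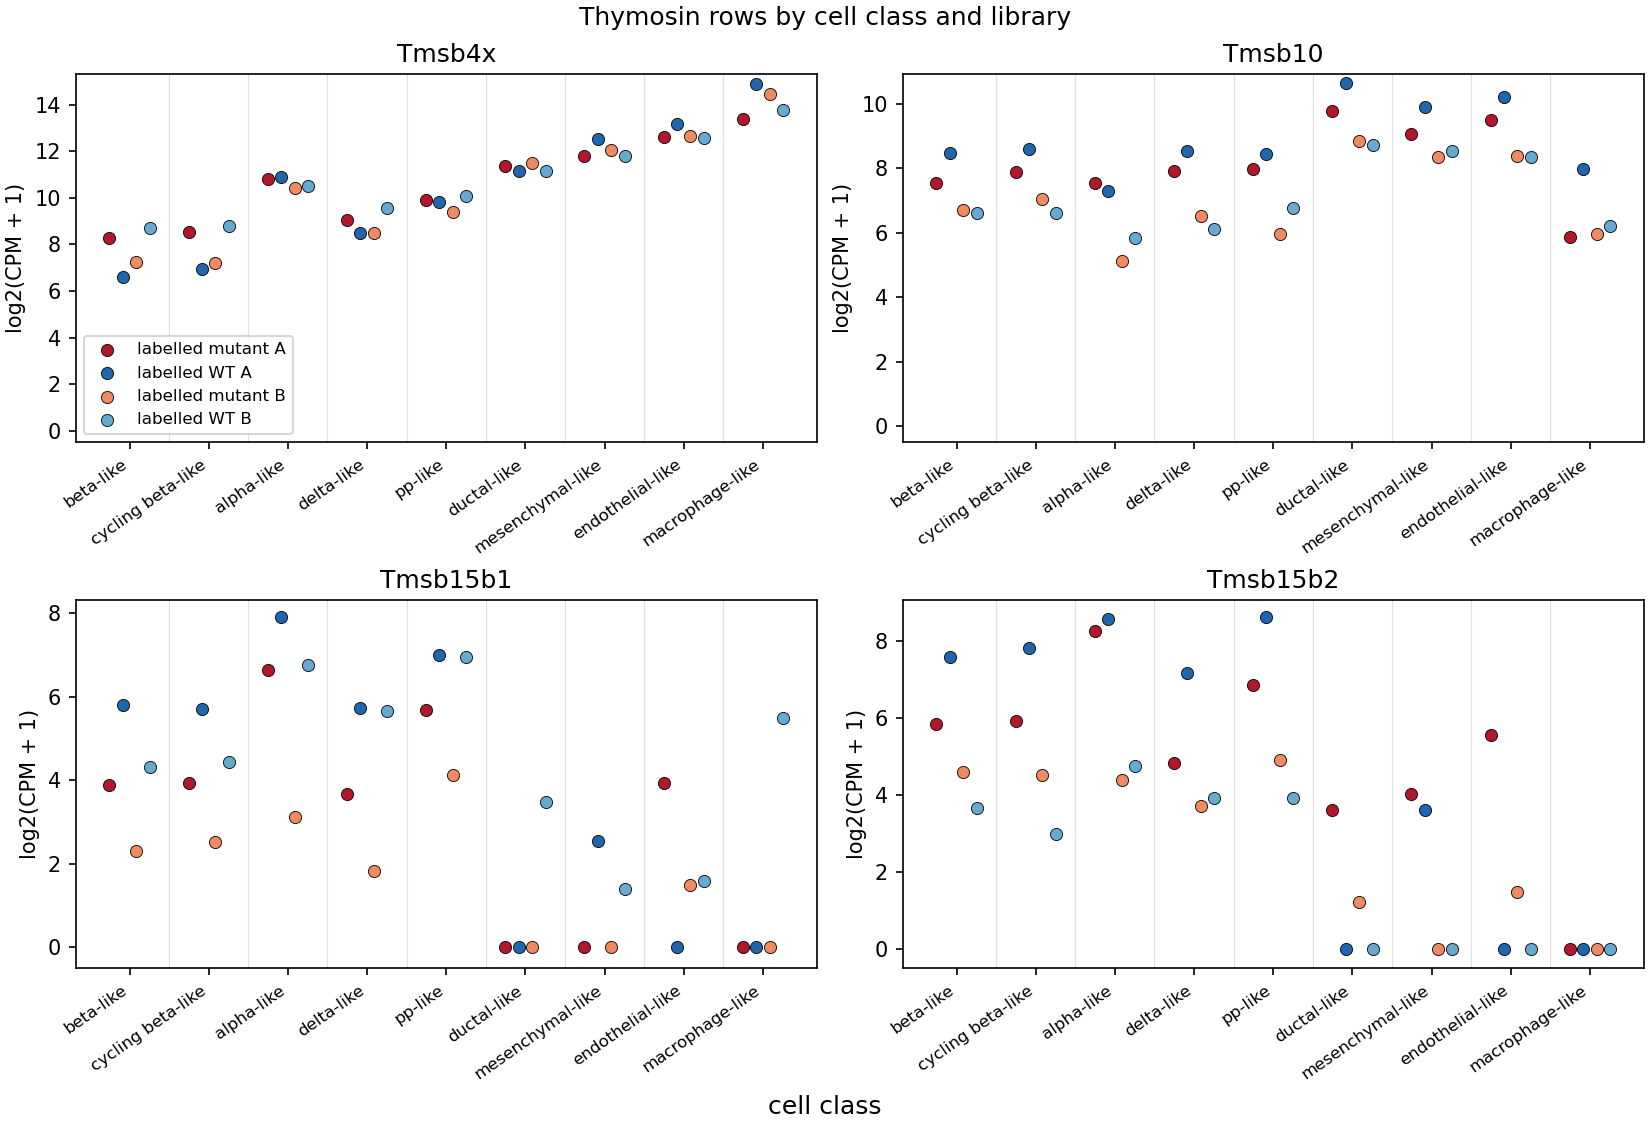
Level of each thymosin row as log2(CPM + 1) in 9 cell classes, 1 point per library, with the libraries labelled mutant left of those labelled WT. Tmsb4x runs from 18318 CPM (median) in macrophage-like cells to 230 CPM in beta-like cells, while both Tmsb15 rows are highest, by median, in alpha-like cells.

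Tmsb10 was most abundant in neuronal-like, ductal-like and endothelial-like cells by median, and in every class tested it was higher in the A than in the B library of a label. Its median level was 724 CPM in neuronal-like cells (22 cells in all), 670 in ductal-like, 529 in endothelial-like, 453 in mesenchymal-like and 432 in Schwann-like cells. Those 5 classes overlapped from one to the next and stood clear of the unnamed clusters, which ranked next. They did not stand clear of every class further down. Acinar-like cells reached 397 CPM and cycling beta-like cells 389 CPM, above the mesenchymal-like minimum of 325 CPM. Among endocrine classes the medians ran from 107 CPM in alpha-like to 184 CPM in cycling beta-like cells, all overlapping. Macrophage-like cells, the class highest in Tmsb4x, came last for Tmsb10, at 67.5 CPM with a range of 57.6 to 254. The ratio of Tmsb10 to Tmsb4x counts was 0.00533 and 0.00275 in macrophage-like cells of the libraries labelled mutant A and B, against 0.00832 and 0.00518 in those labelled WT A and B. In beta-like cells the same ratio was 0.600 and 0.682 labelled mutant, against 3.71 and 0.236 labelled WT.

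In beta-like cells Tmsb10 stood at 185 and 104 CPM in the libraries labelled mutant A and B, against 353 and 97.5 CPM in those labelled WT A and B. WT A was high, the other 3 libraries lay within a narrower range, and the labels overlapped. The log2 ratio was -0.93 within A and 0.09 within B, and the fitted log2 difference was -0.60, which became 0.69 without the library labelled WT A. After thinning, 29.4% and 18.1% of beta-like cells labelled mutant A and B held a Tmsb10 count, against 48.0% and 22.1% of those labelled WT A and B.

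Libraries A exceeded libraries B for Tmsb10 in all 14 comparisons made, 2 labels in each of 7 classes, by 1.66-fold to 5.44-fold. The share of all genes that were higher in A than in B within both labels was 22.7% in beta-like, 33% in alpha-like, 23.2% in cycling beta-like, 26.7% in delta-like, 30.7% in pp-like, 31% in endothelial-like and 33% in mesenchymal-like cells. In alpha-like cells the level was 186 and 34.2 CPM labelled mutant A and B, against 158 and 55.8 CPM labelled WT A and B. In endothelial-like cells it was 724 and 335 CPM labelled mutant, against 1191 and 326 CPM labelled WT. Title number and animal, and any other difference between the A and B libraries, cannot be told apart.

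Tmsb15b1 had its highest medians in alpha-like and pp-like cells, and it stood lower in the libraries labelled mutant in each of the 5 endocrine classes compared. Its beta-like level was 13.7 and 3.97 CPM in the libraries labelled mutant A and B, against 54.5 and 18.8 CPM in those labelled WT A and B. These rest on 65 and 18 counts labelled mutant and 338 and 73 labelled WT, and the labels did not overlap. Over all genes tested in beta-like cells, 7.8% had both libraries labelled mutant below both labelled WT. The ratio of mutant over WT was 0.252 (0.190 to 0.330) within A and 0.211 (0.118 to 0.357) within B. Of all genes tested there, 0.0807% (12 of 14878) were at least 2-fold lower in mutant within both numbers. The row was taken for this contrast, so nothing is read from its place among them.

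In alpha-like cells, where Tmsb15b1 had its highest median, it stood at 98.4 and 7.74 CPM in the libraries labelled mutant A and B, against 240 and 108 CPM in those labelled WT A and B. Mutant B was far below the other 3 libraries, and the log2 ratio was -1.29 within A and -3.80 within B. In both B libraries pp-like cells were above alpha-like cells. In delta-like cells the level was 11.7 and 2.57 CPM labelled mutant, against 51.7 and 49.3 CPM labelled WT. In pp-like cells it was 50.7 and 16.5 CPM labelled mutant, against 126 and 123 CPM labelled WT. The labels overlapped in neither class, where 7.66% and 8.96% of genes had both libraries labelled mutant below both labelled WT, against 6.99% in alpha-like cells. In cycling beta-like cells it was 14.2 and 4.73 CPM labelled mutant, against 50.9 and 20.6 CPM labelled WT, and 11.3% of genes were below in that way. The delta-like value of mutant B rests on 3 counts and that of pp-like cells in mutant B on 4.

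All 10 ratios of Tmsb15b1 within a number, for 5 endocrine classes, were below 1, from -4.26 to -1.29 on the log2 scale. Their intervals, which cover counting error only, were also below 1. The classes come from the same 4 libraries, so neither these ratios nor other tallies over classes here count as separate comparisons. The share of all genes below 1 in all 10 was not counted. The other 3 members overlapped between labels in each of the same 5 classes. The fitted log2 difference of Tmsb15b1 was -1.99 in beta-like, -1.80 in alpha-like, -2.84 in delta-like, -1.81 in pp-like and -1.76 in cycling beta-like cells, where the median of all genes lay between 0.00 and 0.02. In beta-like cells it was -3.17 without the library labelled mutant A and -0.98 without WT A. No gene passed the threshold of edgeR's quasi-likelihood test (p adjusted by Benjamini-Hochberg, under 0.05) in any class, so 0% were called. Before adjustment p was under 0.05 for 15 genes in the higher and 1 in the lower direction in beta-like cells. DESeq2 likewise called 0 genes, and had 16 and 3 under that limit.

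Outside the endocrine classes Tmsb15b1 rested on few counts. Erythroid-like cells had 0 CPM in both libraries labelled mutant, against 79.7 and 68.9 CPM in those labelled WT A and B, from 4 and 5 counts in 8 and 22 cells, so by median, 34.5 CPM, they ranked above delta-like and beta-like cells. Schwann-like cells, with a median of 24.6 CPM, held 2 and 0 counts labelled mutant and 2 counts in each library labelled WT. In endothelial-like cells the row stood at 14.4 and 1.80 CPM labelled mutant A and B, against 0 and 2.02 CPM labelled WT A and B. Those values rest on 5 and 1 counts labelled mutant and 0 and 1 labelled WT. The endothelial-like value of mutant A was no lower than the 13.7 CPM of its beta-like cells. Macrophage-like sums held 0 counts in both libraries labelled mutant and in WT A, and 6 counts, or 43.8 CPM, in WT B. The WT B value, with an interval of 16.1 to 95.3 CPM, was above the 18.8 CPM of its beta-like cells, which that interval covers. For the macrophage-like sums at 0, upper limits were 70.8 and 38.2 CPM labelled mutant A and B, and 58.5 CPM in WT A. Those upper limits exceed the beta-like levels of the same libraries, of 13.7 and 3.97 CPM labelled mutant and 54.5 CPM in WT A. After thinning, 2.71% and 0.602% of beta-like cells labelled mutant A and B held a Tmsb15b1 count, against 9.95% and 3.11% of those labelled WT A and B. Alpha-like shares were 16.1% and 1.67% labelled mutant, against 35.3% and 18.1% labelled WT. In endothelial-like cells, set beside these as a level of free RNA, the share was 0% in all 4 libraries, with upper limits of 7.87% and 3.08% labelled mutant and 6.72% and 5.28% labelled WT (exact binomial), at median depths of 5863.5 and 3443, and of 4039 and 5071 counts. Those limits exceed the beta-like shares of both libraries labelled mutant and of WT B, and that of mutant B also exceeds its alpha-like share, so for those values a share above free RNA was not detectable with this number of endothelial-like cells.

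**Figure D3:**
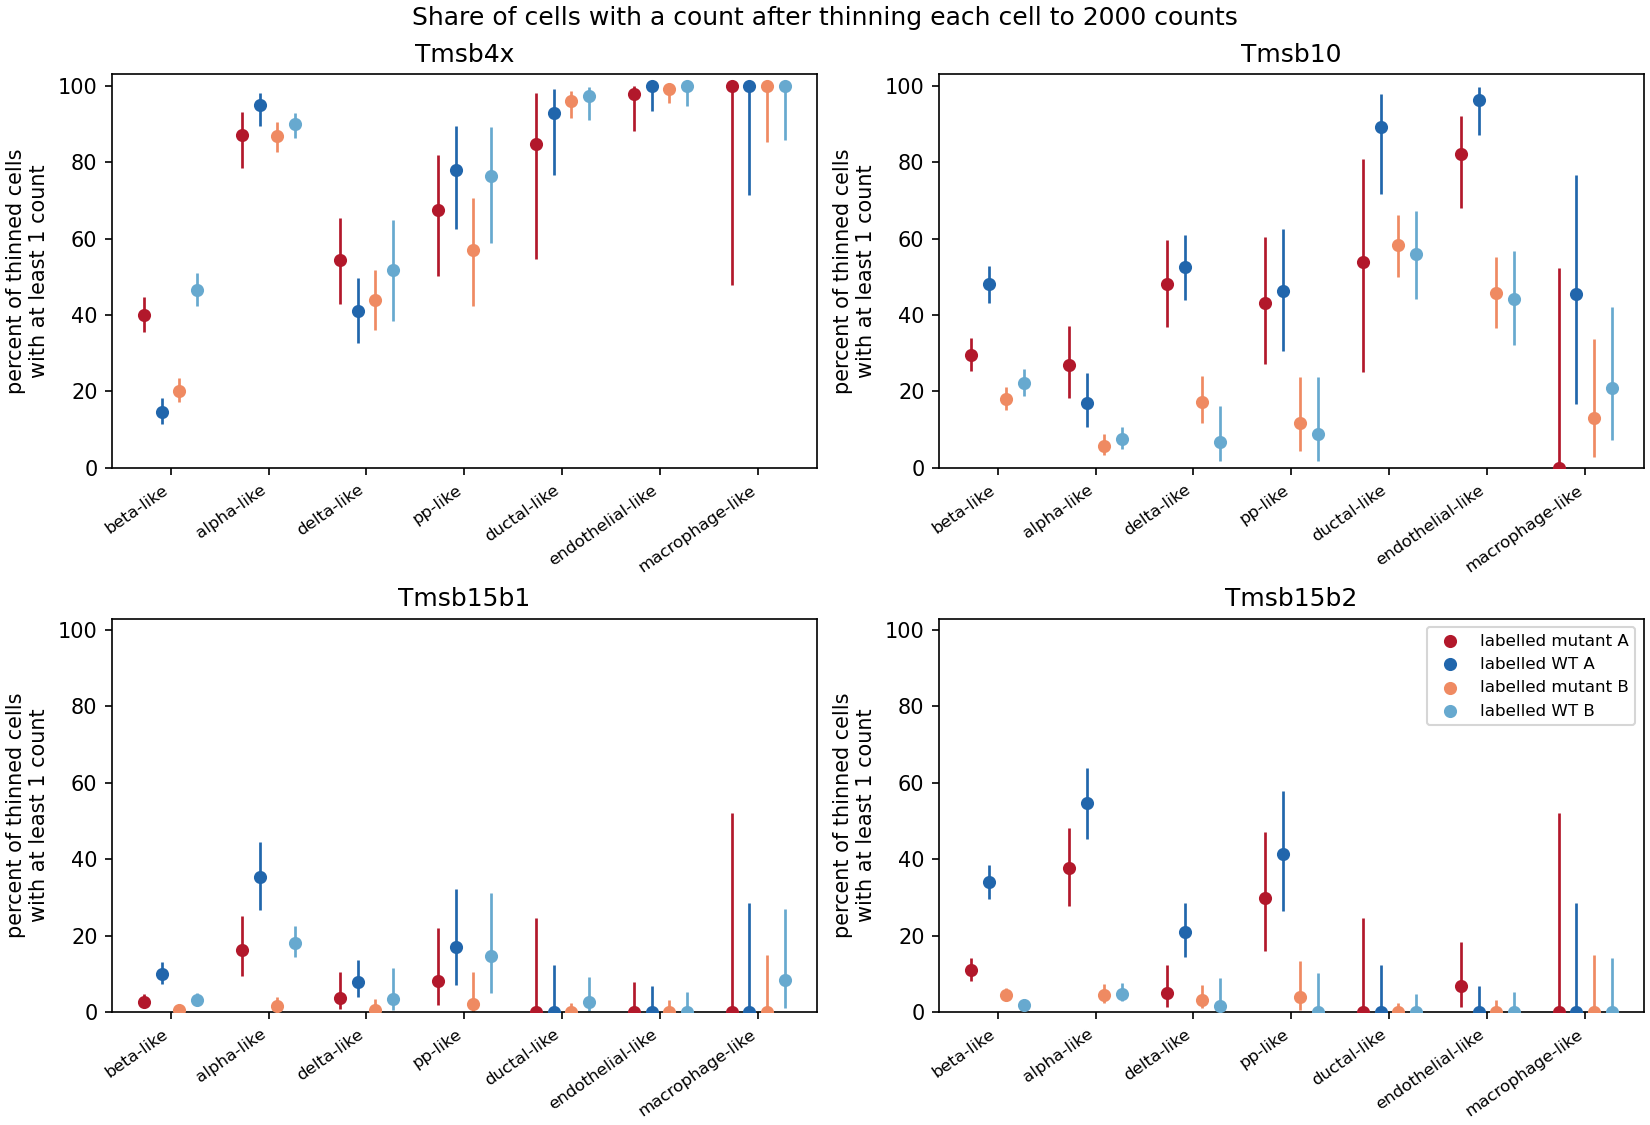
Percent of cells with at least 1 count of each thymosin row after thinning to 2000 counts, in 7 classes, 1 point per library with its 95% exact binomial interval (counting error only) and libraries labelled mutant left of those labelled WT. Tmsb4x is in 87.0% to 94.96% of alpha-like cells, and Tmsb15b1 in 1.67% to 35.3% of them and in none of the thinned endothelial-like cells.

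Tmsb15b2, the near-identical copy, did not follow Tmsb15b1 within B. Its beta-like level was 56.7 and 23.4 CPM in the libraries labelled mutant A and B, against 191 and 11.6 CPM in those labelled WT A and B. WT A was far above the others and WT B was lowest, so the labels overlapped. The log2 ratio was -1.75 within A and 1.01 within B. The fitted log2 difference of -1.32 became 1.90 without the library labelled WT A. In cycling beta-like cells the ratios were likewise -1.92 and 1.69 on the log2 scale, though the WT B sum there held only 7 counts and the ratio within B was 0.31 at 10% mitochondrial counts and 0.13 at resolution 0.5.

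In alpha-like cells Tmsb15b2 separated A from B and not the labels. It stood at 303 and 19.99 CPM in the libraries labelled mutant A and B, against 380 and 26.1 CPM in those labelled WT A and B. The log2 ratios of mutant over WT were -0.33 and -0.38, and the interval in B covered 1. In all 10 endocrine comparisons within a label the A library exceeded the B library, by 2.28-fold to 32.9-fold. This was not particular to Tmsb15b2. Tmsb15b1 was also higher in A in all 10, by 1.02-fold to 12.7-fold. The sum of the 3 Tmsb15 rows was higher in A in all 10, by 2.37-fold to 8.99-fold. Between 22.7% (beta-like) and 33% (alpha-like) of all genes were higher in A within both labels. The share of all genes at least 2-fold higher in A than in B within both labels was 4.29% in beta-like, 6.53% in alpha-like, 4.09% in cycling beta-like, 5.31% in delta-like and 7.14% in pp-like cells. Macrophage-like sums held 0 counts of Tmsb15b2 in the 4 libraries. Endothelial-like cells held 46.1 CPM in the library labelled mutant A, from 16 counts, against 1.80 CPM in mutant B and 0 in both labelled WT. After thinning, 3 of 45 endothelial-like cells of mutant A (6.67%, 1.40% to 18.3%) held a count, beside 10.9% of its beta-like cells, and the interval covers that beta-like share. The part of free RNA in it was not tested.

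**Figure D4:**
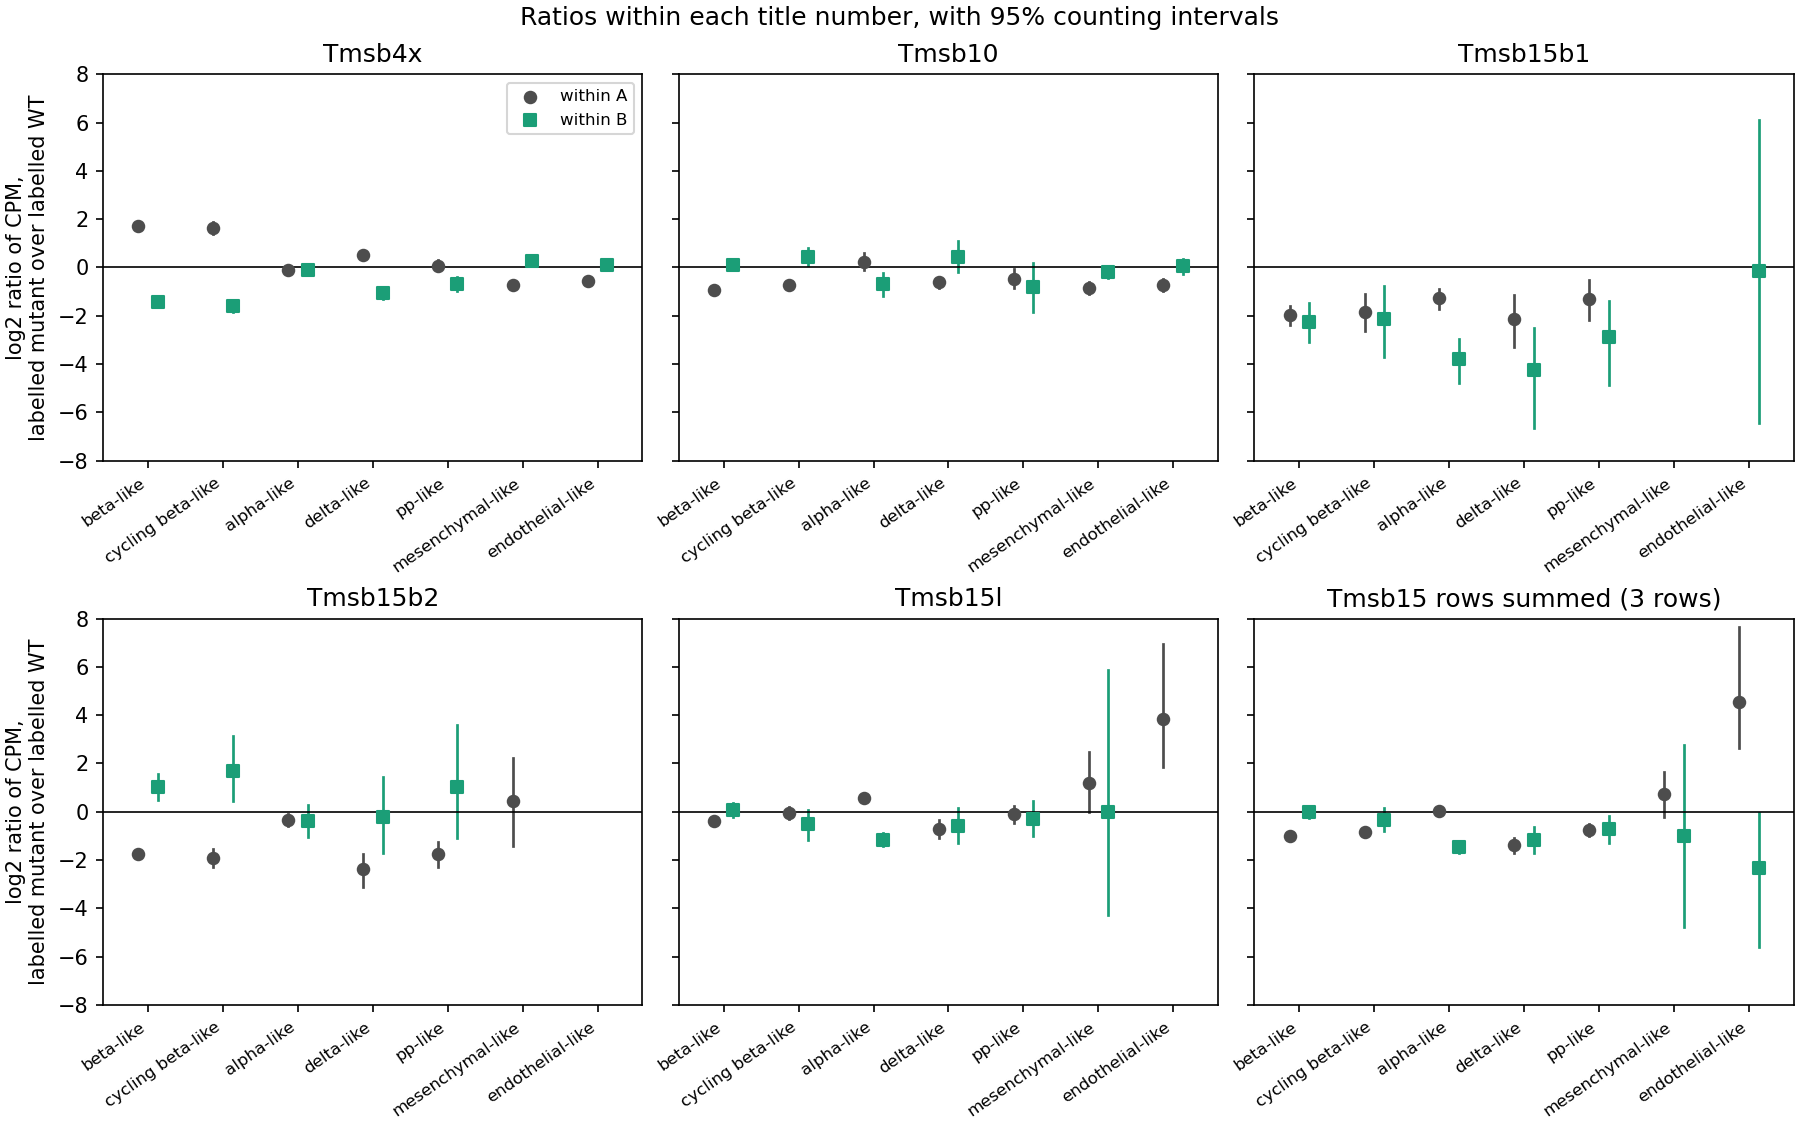
Log2 ratio of mutant over WT CPM within A and within B, with 95% counting intervals, for each thymosin row, for Tmsb15l and for the sum of the 3 Tmsb15 rows, in 5 endocrine classes and in mesenchymal-like and endothelial-like cells. All 10 endocrine ratios of Tmsb15b1 lie between -4.26 and -1.29, whereas those of Tmsb4x and Tmsb15b2 in beta-like cells lie on both sides of 0.

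The sum of the 3 overlapping rows differed less between labels than Tmsb15b1 alone. Tmsb15l, which is no member but shares its exons with both copies, stood at 146 and 47.8 CPM in the beta-like sums of libraries labelled mutant A and B, against 193 and 46.2 CPM in those labelled WT A and B. The 3 rows together gave 216 and 75.1 CPM labelled mutant, against 438 and 76.6 CPM labelled WT. The ratio of mutant over WT of that sum was 0.494 (0.459 to 0.531) within A and 0.981 (0.837 to 1.15) within B, so within B the sum differed by less than counting error. In alpha-like cells it was the reverse, with 1183 and 132 CPM labelled mutant A and B, against 1147 and 365 CPM labelled WT A and B. Of the 10 endocrine ratios of the sum, 9 were below 1, and 7 had intervals below 1.

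In delta-like cells the ratios of the sum were 0.381 within A and 0.446 within B, and in pp-like cells 0.588 and 0.602, all with intervals below 1. The make-up of the sum differed as well. Tmsb15b1 took 6.35% and 5.28% of the 3-row counts in the beta-like sums of libraries labelled mutant A and B, against 12.4% and 24.6% in those labelled WT A and B. In alpha-like cells the share was 8.32% and 5.88% labelled mutant, against 20.9% and 29.6% labelled WT. Over the 5 endocrine classes it ran from 4.55% to 9.28% in libraries labelled mutant, against 10.8% to 40% in those labelled WT, so no share labelled mutant reached any labelled WT. It was lower in the library labelled mutant in 10 of 10 comparisons, and the exact binomial intervals were apart in 8. The share of Tmsb15b2 was lower in 5 and higher in 5 of the 10, and that of Tmsb15l was higher in the library labelled mutant in 9. The share rests on the same Tmsb15b1 counts as above and is no second line of evidence. How tags shared by the rows were assigned was not tested, as the counts hold no reads.

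**Figure D5:**
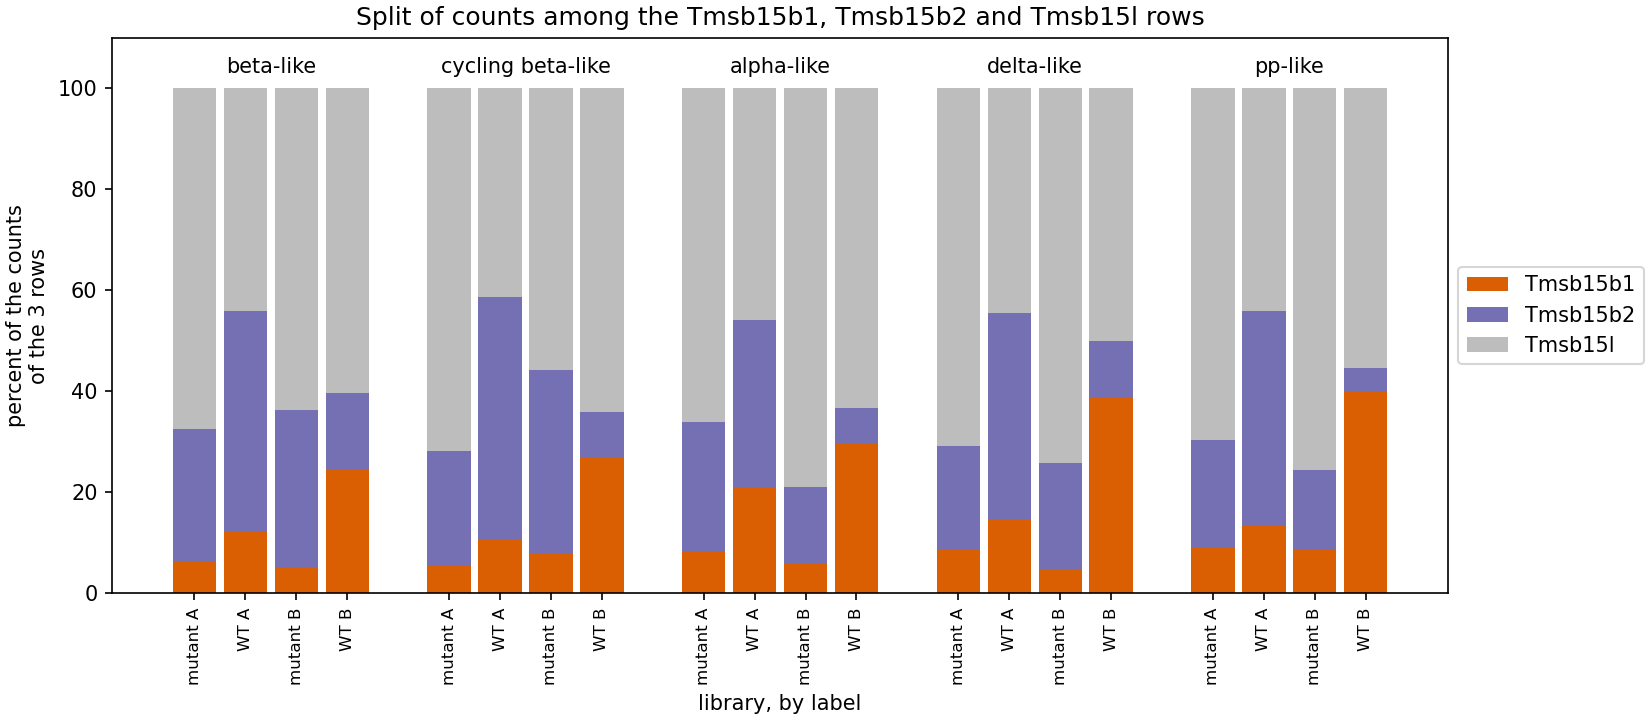
Percent of the counts of Tmsb15b1, Tmsb15b2 and Tmsb15l that fell to each row, in 5 endocrine classes, with libraries labelled mutant left of those labelled WT. Tmsb15b1 takes 4.55% to 9.28% in libraries labelled mutant and 10.8% to 40% in those labelled WT.

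In beta-like cells the labels overlapped in the neighbours of the Tmsb15 genes. On the higher-coordinate side lay Slc25a53, a mitochondrial carrier gene, 4242 bases away. It stood at 44.8 and 62.1 CPM in the beta-like sums of libraries labelled mutant A and B, against 64.8 and 48.5 CPM in those labelled WT A and B. Zcchc18, 16281 bases away, stood at 124 and 287 CPM labelled mutant, against 221 and 246 CPM labelled WT. Neither gene had both libraries labelled mutant below both labelled WT. On the lower-coordinate side, Rab9b, a small GTPase gene, held 2.33 and 3.09 CPM labelled mutant, against 3.71 and 2.06 CPM labelled WT, and H2bfm was at or below 0.258 CPM in every beta-like sum. In alpha-like cells Slc25a53 stood at 131 and 85.1 CPM labelled mutant A and B, against 166 and 108 CPM labelled WT A and B, lower in mutant within both numbers though the labels overlapped. Zcchc18 there stood at 569 and 713 CPM labelled mutant, against 753 and 655 CPM labelled WT, lower in mutant within A and higher within B. Rab9b went the other way round, at 7.81 and 7.09 CPM labelled mutant, against 5.56 and 7.32 CPM labelled WT. H2bfm was at or below 0.645 CPM in every alpha-like sum.

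Genes whose levels ran most like the members were named over 28 sums, 4 libraries in each of 7 classes, among 7432 genes, by Pearson's r of log2(CPM + 1). These sums share libraries and cell classes, so r is a description. For Tmsb4x they were Id3 (0.96), Amotl1 (0.95), Bcl2 (0.95), Wwc2 (0.94) and Tgfb2 (0.93). For Tmsb10 they were Prdx1 (0.90), Hnrnpf (0.89), Cnih1 (0.89), Eva1b (0.89) and Arf6 (0.88). Tmsb15b1 was closest to Rnf130 (0.83), Glcci1 (0.83), its neighbour Slc25a53 (0.83), the overlapping Tmsb15l (0.82) and Pim2 (0.81). Tmsb15b2 was closest to Camk2n2 (0.94), Gpx3 (0.92), Snd1 (0.91), Hdac6 (0.90) and Glcci1 (0.89). Glcci1 occurred for both copies, although their own levels diverged within B.

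The actin genes that beta-thymosins act beside were read from 7 lists. None of their members was called by edgeR in any class, against 0% of all genes. In beta-like cells 4 of 6 actins could be tested, with a median log2 difference of 0.23, against 0.02 over all genes. Actb, the main cytoplasmic actin, stood at 2045 and 2443 CPM in the libraries labelled mutant A and B, against 2137 and 2165 CPM in those labelled WT A and B, which is a narrow range beside that of Tmsb4x. Actg1, the other cytoplasmic actin, stood at 1678 and 1573 CPM labelled mutant, against 2386 and 1708 CPM labelled WT. Both libraries labelled mutant thus lay below both labelled WT, as they did for 7.8% of all genes tested in beta-like cells. Of the 4 actins tested, 1 was lower in mutant within both numbers and 3 went opposite ways in A and B.

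The other 6 lists had medians between -0.08 and 0.06 in beta-like cells. The list of monomer binders and recyclers had a median of -0.08 over 10 of 11 members. Its most abundant member, Cfl1, the filament-severing cofilin, stood at 758 and 826 CPM labelled mutant A and B, against 1087 and 629 CPM labelled WT A and B. Dstn, the related destrin, stood at 289 and 417 CPM labelled mutant, against 551 and 351 CPM labelled WT. For both genes WT A was the high library. Capping and severing genes had a median of 0.05 over 9 of 11 members, and Capzb, a filament-capping subunit, stood at 234 and 415 CPM labelled mutant, against 330 and 339 CPM labelled WT. Capza2, another capping subunit, stood at 78.7 and 130 CPM labelled mutant, against 119 and 146 CPM labelled WT.

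Nucleators differed as little. The list of WH2 nucleators and formins had a median of 0.06 over 16 of 18 members with a row, and held the formin Fmnl2 at 55.8 and 183 CPM labelled mutant A and B, against 107 and 132 CPM labelled WT A and B, and Mtss1, which binds membranes and actin, at 58.0 and 60.8 CPM, against 56.3 and 103 CPM. The 9 subunits of the Arp2/3 complex, which starts filament branches, had a median of -0.06. Among them Actr3 stood at 235 and 464 CPM labelled mutant, against 341 and 410 CPM labelled WT, and Arpc2 at 228 and 402 CPM, against 321 and 334 CPM.

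Genes of the SRF axis, which free actin regulates, had a median of -0.02 over 8 of 13 members with a row. Tpm1, a tropomyosin, stood at 72.6 and 87.5 CPM labelled mutant A and B, against 70.8 and 139 CPM labelled WT A and B. Srf stood at 42.7 and 65.5 CPM labelled mutant, against 88.3 and 44.4 CPM labelled WT. The ILK complex, a known partner of thymosin beta 4, had a median of 0.05 over 5 of 6 members, with Ilk at 113 and 194 CPM labelled mutant, against 266 and 136 CPM labelled WT, and its partner Rsu1 at 29.8 and 114 CPM, against 62.4 and 55.2 CPM. In each of these named genes the labels overlapped or differed without passing the test (edgeR's quasi-likelihood test, adjusted p = 1.00).

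The rows of other thymosin names were also read. Ptma, the prothymosin alpha gene, which is unrelated in sequence and acts on chromatin, stood at 1893 and 2217 CPM in the beta-like sums of libraries labelled mutant A and B, against 2356 and 2261 CPM in those labelled WT A and B. For Ptma both libraries labelled mutant lay below both labelled WT, as for 7.8% of all genes tested in beta-like cells. Ptms, parathymosin, stood at 526 and 731 CPM labelled mutant, against 758 and 574 CPM labelled WT. In Ptms the labels overlapped. Ptma and Ptms ran over a narrower range of levels than the members did in beta-like cells. Tmsb15a, a further Tmsb15 gene on chromosome X, held 1 and 2 counts over all cells labelled mutant A and B, against 4 and 0 labelled WT A and B, too few to compare. Within single beta-like cells, thinned to 2000 counts, Tmsb4x and Tmsb10 had rank correlations of 0.05 and 0.09 in the libraries labelled mutant A and B, against 0.01 and 0.06 in those labelled WT A and B, too weak in counts this sparse to be a finding.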

How the data were processed

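Raw whole-number counts per gene and barcode were deposited by the authors for 4 inDrop libraries. The submitters' processing notes name GRCh38 and GRCm38. The sources used here name no aligner, annotation, counting program, molecular barcode collapse or barcode selection. Cells needed 500 or more counts, 250 or more genes and no more than 25% mitochondrial counts (6566 of 6948 passed), and 40 Scrublet doublets (0.609%) were removed. Cells were scaled to 10000 counts and clustered (scanpy 1.11.5, 2000 variable genes without thymosin rows, 30 principal components, 15 neighbours, Leiden resolution 1, seed 1), and 23 clusters were named from markers, needing at least 3 detected. Sums were made per library and class, and tested where each library had at least 20 cells. CPM are counts per 1e6 of the sum. edgeR 4.0.16 (TMM, filterByExpr, quasi-likelihood F test, Benjamini-Hochberg over all genes) was tested on simulated data, and DESeq2 1.42.0 was an alternative. P-values cover the spread between 2 libraries per label. Intervals are 95% exact and cover counting error only. Members and lists were chosen with earlier results of these data known. Named genes were the members, Sin3a, the 5 nearest in level to each member, 2 genes per actin list by beta-like level, and 2 neighbours per side. Alternatives are given in the closing section.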

Additional observations from a re-analysis of the deposited data

Results flagged for a closer look

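In several classes the ratio of mutant over WT went one way within A and the other way within B. The difference between A and B was not tested, since each holds 1 library per label. For Tmsb4x the log2 ratio of mutant over WT was 1.70 within A and -1.44 within B in beta-like cells. In cycling beta-like cells it was 1.63 within A and -1.60 within B. In delta-like cells it was 0.53 within A and -1.08 within B. The signs were turned round in endothelial-like cells, at -0.56 within A and 0.10 within B. They were also turned round in mesenchymal-like cells, at -0.71 within A and 0.26 within B. That class mixes clusters unevenly, as cluster 16 held 0 and 133 cells labelled mutant A and B, against 33 and 11 labelled WT. Within B, cluster 9 stood at 5003 CPM labelled mutant against 5035 CPM labelled WT, and cluster 21 at 3343 against 2539 CPM.

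For Tmsb10 the log2 ratio in cycling beta-like cells was -0.73 within A and 0.45 within B. For Tmsb15b2 it was -1.75 within A and 1.01 within B in beta-like cells, and -1.92 within A and 1.69 within B in cycling beta-like cells. No such opposite pair of ratios was found for Tmsb15b1 in the 5 endocrine classes.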

How the results depend on the processing

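The number of genes called by edgeR stayed at 0 in every class with library totals in place of TMM factors, with DESeq2, at 10% mitochondrial counts and at Leiden resolution 0.5. Without the filter on low counts it became 23 in endothelial-like and 16 in mesenchymal-like cells. Leaving out 1 library in turn gave from 0 to 56 genes over all cells, 0 to 8 in alpha-like, 0 to 1 in beta-like, 0 to 43 in cycling beta-like, 0 to 14 in delta-like, 1 to 101 in endothelial-like, 0 to 250 in mesenchymal-like and 0 to 7 in pp-like cells, where the lone library of a label is assumed to vary like the others. The counts of 56, 43, 101 and 250 came without the library labelled mutant B, that of 8 without mutant A and that of 14 without WT A. In beta-like cells the log2 difference then ran from -0.72 to 1.19 for Tmsb4x, -1.38 to 0.69 for Tmsb10, -3.17 to -0.98 for Tmsb15b1 and -2.35 to 1.90 for Tmsb15b2.

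With the title number as replicate block, 0 genes were called in every class, and the beta-like log2 differences were 0.23, -0.33, -2.01 and -0.32 for Tmsb4x, Tmsb10, Tmsb15b1 and Tmsb15b2. The number is not shown to pair libraries, as deviations of same-numbered libraries from their label means correlated at 0.066 over 9894 genes. Adding the 3 Tmsb15 rows into 1, chosen after seeing the data, gave a beta-like log2 difference of -0.79 in place of -1.99 for Tmsb15b1, since the added rows differ less. The sign of Tmsb15b1 was kept in all 66 alternatives, left-out libraries included. That of Tmsb15b2 was kept in 59 of 66, of Tmsb4x in 62 of 80 and of Tmsb10 in 64 of 80. For both Tmsb15 rows these include the fits in which the 3-row sum took the place of the row. Both libraries labelled mutant lay below both labelled WT for Tmsb15b1 in the classes counted, so leaving out a library could hardly turn its sign. The row was also taken for this contrast, so nothing is read from its count.

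Ratios in cycling beta-like cells depended on the clusters. Within B, Tmsb15b2 had 1.69, against 0.31 at 10% mitochondrial counts and 0.13 at resolution 0.5, and Tmsb4x -1.60, against -0.45 and -0.61. Within A the same alternatives gave 1.23 and 1.26 for Tmsb4x, in place of 1.63, and -1.49 and -1.52 for Tmsb15b2, in place of -1.92. Beta-like ratios were also taken with the hormone genes, insulin among them, left out of the totals. Within A the log2 ratios were then 1.96 for Tmsb4x, -0.67 for Tmsb10, -1.72 for Tmsb15b1 and -1.48 for Tmsb15b2. Within B they were -1.52, 0.01, -2.33 and 0.93 in the same order. The causes were not tested. With 2 libraries per label, spread between libraries limits these values, as does the low number of Tmsb15 counts in delta-like and pp-like cells. Leaving out 1 library moved Tmsb15b2 between -2.86 and 0.49 in delta-like and between -2.87 and 2.26 in pp-like cells.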
